A study of Mus musculus with 15 samples.

Results

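The genes described here are the expressed Zfp genes of the mouse, which carry a symbol made of the letters Zfp and a number and encode zinc finger proteins. They were taken as the autosomal genes of that form with a mean of at least 50 normalised read values over the 6 allele columns of the table, leaving out Zfp36, an RNA-binding protein of another finger type. The table held 334 genes of that form among 44260 genes. Of these, 7 lie on the X chromosome and 326 are autosomal besides Zfp36, and 231 of the 326 reached the threshold while 95 did not. The threshold used the level of both alleles together, so the genes were chosen by their measured level and the levels below are a description. The threshold itself did not compare the alleles with each other, but the genes were chosen with earlier results of these data known. In 18 of them the mean of 1 allele was under 50, so they reached the threshold through the other allele.

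RNA was sequenced from organoids at day 12, grown from SpretB6 epiblast stem cell lines that hold a C57Bl/6J (B6) copy and a Spret copy of each autosome. There were 3 libraries, titled C1 to C3 and called libraries 1, 2 and 3 here, and each gave a B6 value and a Spret value for every gene from the same RNA. All libraries have the same genotype and no treatment separates them, so the comparison is between the alleles within a library. No reciprocal cross is in the table, so the strain of an allele and the parent it came from cannot be told apart, and the labels do not say that the 3 libraries are separate cultures. The p-values therefore cover only how far these libraries differ from each other, which may be technical. For each gene that spread was estimated largely from other genes of like level, in the p-values and in the SE.

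Most Zfp proteins are built from a row of C2H2 zinc fingers, each a short fold in which a pair of cysteines and a pair of histidines hold a zinc ion and other residues read bases of DNA. Many of them also carry a KRAB domain, which binds the co-repressor Trim28 and through it brings histone methylation to the bound site. KRAB zinc finger genes arose by repeated tandem duplication, sit in clusters of related copies, and are known for silencing retroelements and for protecting imprints in early embryos and stem cells.

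The repeated unit is shown by coding stretches of 3 pairs of genes that stand close together in the genome and turn up again below, because their alleles differed in opposite or in the same directions. Each stretch is the first finger of canonical spacing in the longest coding transcript together with the linker after it, 84 bases or 28 codons, in the B6 reference sequence (GENCODE M21, GRCm38), 5′ to 3′ on the coding strand. Capitals mark the codons of the 2 cysteines and the 2 histidines. On chromosome 7 the stretch of Zfp78 lies in the last of 5 exons at chr7:6378571-6378654 (plus strand) and that of Zfp28 in the last of 7 exons at chr7:6393702-6393785 (plus strand). On chromosome 16, Zfp263 has its stretch in the last of 6 exons at chr16:3748960-3749043 (plus strand) and Zfp174 in the last of 3 exons at chr16:3854570-3854653 (plus strand). On chromosome 17, the stretch of Zfp760 is in the last of 6 exons at chr17:21722473-21722556 (plus strand) and that of Zfp820 in the last of 5 exons at chr17:21819710-21819793 (minus strand).
Zfp78: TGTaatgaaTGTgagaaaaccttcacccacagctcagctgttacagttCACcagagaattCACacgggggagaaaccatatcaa
Zfp28: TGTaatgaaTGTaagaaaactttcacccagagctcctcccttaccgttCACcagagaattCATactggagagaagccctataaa
Zfp263: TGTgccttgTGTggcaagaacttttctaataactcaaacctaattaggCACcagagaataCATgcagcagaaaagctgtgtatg
Zfp174: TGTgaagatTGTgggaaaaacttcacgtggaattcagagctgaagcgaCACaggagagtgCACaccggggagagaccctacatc
Zfp760: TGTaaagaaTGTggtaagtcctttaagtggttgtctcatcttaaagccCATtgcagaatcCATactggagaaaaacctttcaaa
Zfp820: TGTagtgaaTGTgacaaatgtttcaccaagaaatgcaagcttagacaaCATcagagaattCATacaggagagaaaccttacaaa
The stretches of the neighbours Zfp78 and Zfp28 were identical at 83.3% of bases. The stretches of Zfp760 and Zfp820 were identical at 64.3% and those of Zfp263 and Zfp174 at 54.8%. Some stretches of genes on different chromosomes were more alike than these, at 73.8% between Zfp28 and Zfp820 and 69.0% between Zfp78 and Zfp820.

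Across the 231 genes the proteins had a median of 11 fingers, from 0 to 36, counted by the spacing of cysteines and histidines. The genes without a match were Zfp939, which has no coding transcript in the annotation, Zfp703 and Zfp330. A KRAB domain was found in any annotated isoform of 127 genes and not in 103. Zfp267 had no transcript to search. Zfp939, with no coding transcript, could not be searched either but is counted among the 103. Among all 325 autosomal Zfp genes with a transcript, 185 had a KRAB match, of which 58 fell below the level threshold.

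The mean value per allele column ran from 50.5 to 1827.5 with a median of 129. Values are not per length and depend on how many differences between the strains a transcript holds, so they give no order of expression between genes. The genes just above the threshold were Zfp526 at 50.5 and Zfp273 and Zfp703, both at 51.2, and those just below it were Zfp787 at 49.5, Zfp108 at 48.3 and Zfp85 at 48.2. In 18 of the 231 genes the mean of 1 allele was under 50, the B6 allele in 8 and the Spret allele in 10, and the lowest such mean was 29.7.

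All B6 values of a library summed to between 2413876 and 3027078 and all Spret values to between 2088788 and 2639912. The Zfp genes made up 1.77%, 1.76% and 1.73% of the values in libraries 1, 2 and 3. Summed over both alleles, 167 of them were highest in library 3, 53 in library 1 and 11 in library 2, and the highest library exceeded the lowest by a median of 1.29 times. Only Zfp703 (72, 82 and 153) and Zfp941 (265, 164 and 391) differed by 2 times or more. The 8 markers of dorsal forebrain and neurons summed to between 17295 and 18188 per library. The 6 markers of epiblast stem cells, the tissue in the labels, summed to between 25 and 96. Most of that was Pou5f1, at 57, 63 and 13 in libraries 1, 2 and 3. Nanog stood at 1, 5 and 3. The 5 choroid plexus markers summed to 2823, 637 and 379 in libraries 1, 2 and 3, of which Ttr gave 2555, 534 and 323. Endothelial markers reached 38 to 100, microglial ones 60 to 129 and mesenchymal ones 291 to 325. Cldn5 and Dppa5a were at 0 in library 1 and Utf1 in library 3. The part of these other cells in the results below was not tested, and in bulk RNA fewer cells of a type and less RNA per cell cannot be told apart.

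The first question was how many Zfp genes had unequal RNA values from the B6 and Spret alleles in the same RNA. Of the 231 genes, 80 (34.6%) differed between the alleles at an adjusted p under 0.05 in limma with Benjamini-Hochberg adjustment over all tested genes, 25 with the Spret allele higher and 55 with the B6 allele higher. The same test called 28.4% of all 15456 autosomal genes tested and 35.7% of the 8952 with a mean of at least 50, so the share among Zfp genes was near the background of genes at that level. By direction, 10.1% of the genes at that level were called toward Spret and 25.6% toward B6, and of all autosomal genes tested 7.78% and 20.7%. The 3 values of the alleles did not overlap in 73 Zfp genes (31.6%), against 24.9% of autosomal genes with a mean of at least 50.

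The split by direction rests on the overall balance of the alleles. The median log2 ratio of Spret over B6, with 1 added to each value, was -0.10 over the Zfp genes, from a lower quartile of -0.31 to an upper quartile of 0.17. It was -0.13 over the autosomal genes tested and -0.11 over those with a mean of at least 50. The Zfp median was -0.10, -0.10 and -0.09 in the 3 libraries. When each library's ratios were centred on its autosomal median, 46 Zfp genes were called toward Spret and 39 toward B6, and the Zfp median became 0.03. The centred background at that level was 34.2% in all, 18.1% toward Spret and 16.1% toward B6, so which direction held more Zfp genes changed with the centring. Of the 80 genes, 64 were also called after centring.

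**Figure D1:**
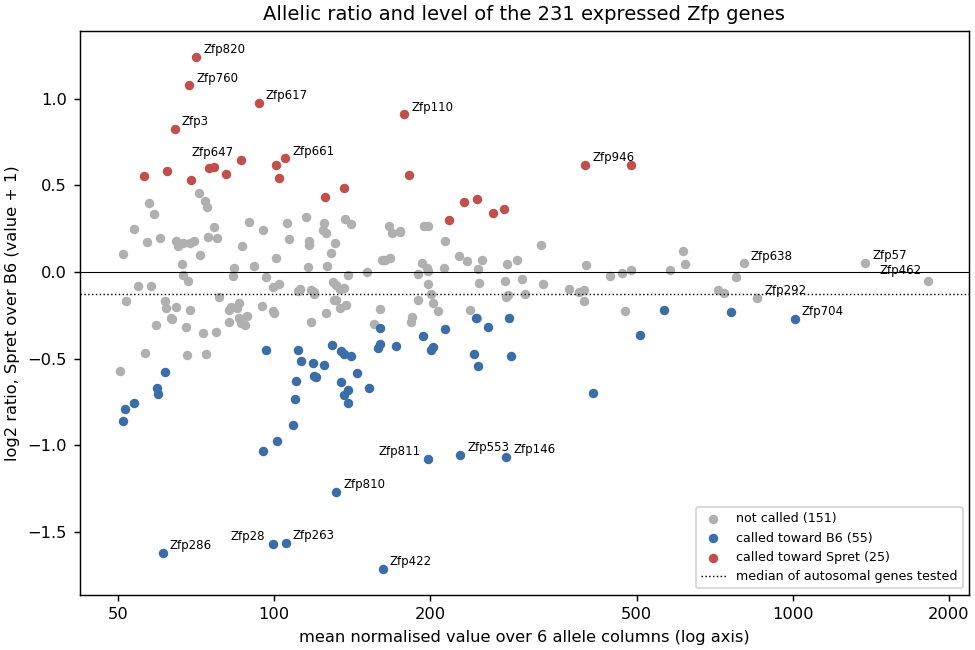
Each point is 1 of 231 Zfp genes, with its mean normalised value on a log axis and its log2 ratio of Spret over B6 on the vertical axis. Called genes are red (25, Spret higher) or blue (55, B6 higher), the dotted line is the autosomal median of -0.13, and the gene of highest value, Zfp462, sits near 0.

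Differences were mostly moderate. The median fold among genes called toward Spret was 1.496 (quartiles 1.40 and 1.57, highest 2.37) and among those called toward B6 1.491 (quartiles 1.35 and 1.69, highest 3.29). At least 2-fold differences were called for 11 Zfp genes, 2 toward Spret and 9 toward B6, against 3.74% of autosomal genes with a mean of at least 50 and 7.35% of all autosomal genes tested. The median absolute log2 ratio was 0.24 in the Zfp genes and 0.24 in autosomal genes of that level.

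The largest ratios were toward B6. Zfp422 (chr6:116624016-116628999), also known as Krox-26, had B6 values of 276, 234 and 236 and Spret values of 89, 68 and 69 in libraries 1, 2 and 3. The lowest B6 value stood above every Spret value, and the log2 ratio was -1.72 ± 0.12 (SE, n = 3 libraries; limma adjusted p = 1.72e-08). In its transcript 20.4% of 50-base windows also occur in another gene's transcript, most of them in Zfp955b, so how the authors' counting divided such reads bears on this value.

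Zfp286 (chr11:62752577-62789462), a KRAB gene with 10 fingers, had B6 values of 86, 98 and 93 against Spret values of 23, 34 and 32, and with a Spret mean of 29.7 it reached the level threshold through its B6 allele. The log2 ratio was -1.62 ± 0.19 (SE, n = 3; limma adjusted p = 1.16e-05), and its exons overlap those of Gm10428 and Gm27194 on the opposite strand. Whether the counting used strand is not given. Zfp263 (chr16:3744093-3750790), with 9 fingers and no 50-base window shared with other transcripts, stood at 163, 139 and 167 from B6 and 37, 50 and 76 from Spret. Its alleles did not overlap, and the ratio of -1.56 ± 0.18 (SE, n = 3; limma adjusted p = 7.44e-06) was larger than the spread between libraries. Zfp28 (chr7:6383295-6396915), a KRAB gene with 14 fingers, gave 161, 137 and 148 from B6 and 42, 46 and 62 from Spret, a ratio of -1.57 ± 0.16 (SE, n = 3; limma adjusted p = 2.5e-06). It shares 16.4% of its windows with other transcripts, mostly with Gm3203.

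Zfp810, Zfp811, Zfp146 and Zfp553 were also at least 2-fold higher from B6, each with all B6 values above all Spret values. For Zfp810 (chr9:22276748-22307648), a KRAB gene with 10 fingers and no shared windows, B6 values of 173, 171 and 215 stood against Spret values of 60, 85 and 87. Zfp811 (chr17:32795676-32809931), also with a KRAB domain, stood at 316, 216 and 279 against 113, 134 and 132. In Zfp146 (chr7:30161269-30169750), also called OZF, a protein made of little besides its 10 fingers, B6 values of 426, 350 and 361 met Spret values of 191, 154 and 197. The log2 ratios of these 3 genes were -1.27 ± 0.13, -1.08 ± 0.13 and -1.07 ± 0.09 (SE, n = 3 libraries). Zfp553 (chr7:127233061-127238179), whose exons overlap Sept1 on the other strand, had 322, 302 and 301 from B6 and 173, 134 and 139 from Spret, for a ratio of -1.06 ± 0.10. Besides these, Zfp939 passed 2-fold toward B6 at -1.03.

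Toward Spret the largest ratios belonged to a pair of KRAB genes on chromosome 17. Zfp820 (chr17:21816885-21845772), with 12 fingers, had B6 values of 52, 28 and 48 and Spret values of 95, 102 and 100. Its Spret values lay within a narrow band above all B6 values, and the log2 ratio was 1.24 ± 0.20 (SE, n = 3; limma adjusted p = 0.000261). Zfp760 (chr17:21707741-21725636), with 16 fingers, stood at 55, 29 and 48 from B6 and 99, 66 and 115 from Spret. Both alleles were lowest in library 2, the alleles did not overlap, and the ratio was 1.08 ± 0.18 (SE, n = 3; limma adjusted p = 0.000279). With B6 means of 42.7 and 44 both genes reached the level threshold of 50 only through their Spret allele, so the threshold favoured a difference in them. Of the windows of Zfp820 4.58% occur in other transcripts, and of those of Zfp760 0.577%.

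Zfp110 (chr7:12834761-12850577) encodes a KRAB protein that binds the p75 neurotrophin receptor and is also called NRIF1. Its B6 values were 113, 96 and 167 and its Spret values 228, 212 and 252. The Spret allele was higher in each library with no overlap, at a log2 ratio of 0.91 ± 0.12 (SE, n = 3; limma adjusted p = 3.81e-05). Its relative Zfp369 on chromosome 13 (NRIF2), which shares 1.47% of the windows of Zfp110, had 113, 97 and 138 from B6 and 119, 130 and 157 from Spret, a ratio of 0.23 ± 0.12 that did not pass the test (adjusted p = 0.191) but was called toward Spret after centring (0.0485). The difference between the relatives was not tested.

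Zfp617 had 70, 52 and 66 from B6 and 126, 108 and 138 from Spret (log2 ratio 0.98 ± 0.14), but it shares 41.6% of its windows with other transcripts, most with Gm18180, and overlaps exons of Zfp882 on the same strand, so its value is uncertain. Zfp3 (chr11:70764209-70772928), with 13 fingers and no shared windows, had 50, 40 and 48 from B6 and 89, 68 and 91 from Spret, a ratio of 0.83 ± 0.17, and it too passed the level threshold only through its Spret allele. Zfp661, Zfp647 and Zfp946, all KRAB genes, followed at 0.66 ± 0.14, 0.65 ± 0.15 and 0.62 ± 0.08 (SE, n = 3 libraries), and the call of Zfp647 was lost without library 1 (limma adjusted p = 0.0544). Of these, Zfp946 (chr17:22424222-22456689) had the highest values, 294, 297 and 351 from B6 and 525, 448 and 474 from Spret. In all 8 genes with the largest Spret ratios every Spret value exceeded every B6 value.

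**Figure D2:**
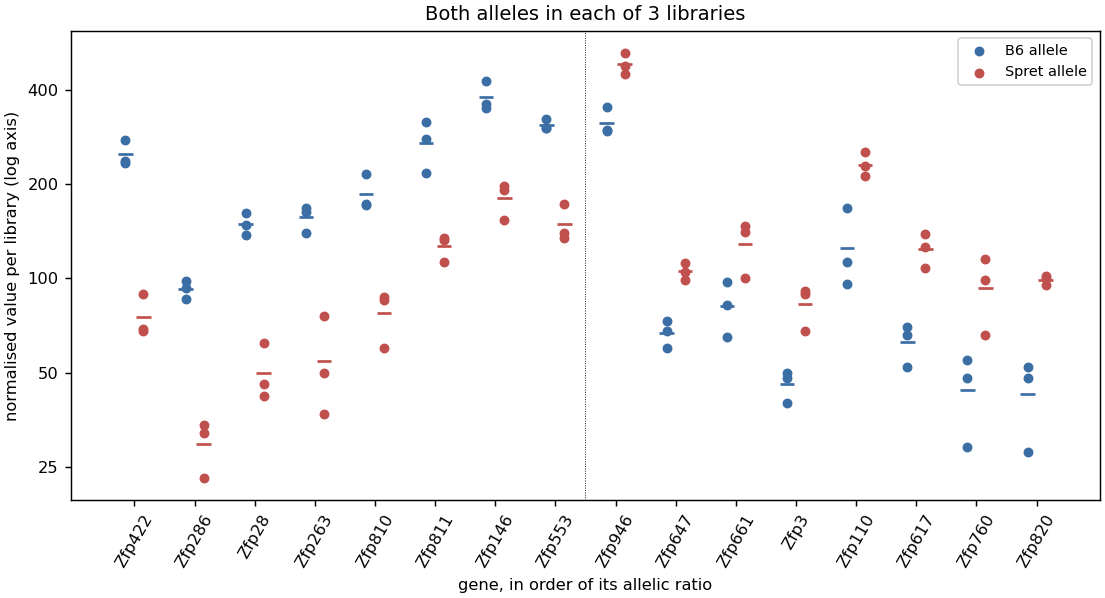
Normalised values (log axis) of the 8 Zfp genes with the largest called ratio in each direction, with 1 point per library and allele and a bar at the mean of 3 libraries. In the 8 genes left of the dotted line the blue B6 points lie above the red Spret points, and in the 8 to its right below them, with no overlap in any gene.

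Over the alternatives of the analysis, 9 genes were called in every one. They were Zfp146, Zfp28, Zfp286, Zfp422, Zfp553, Zfp810 and Zfp939 with the B6 allele higher, and Zfp3 and Zfp617 with the Spret allele higher. The number of calls fell to 46 when library 1 was left out, which kept 44 of the 80 genes, to 71 without library 2 and to 56 without library 3. No share over all autosomal genes was taken for these counts, so they show nothing particular to Zfp genes.

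Zfp genes lie in tandem arrays, so the next question was whether neighbours shared an allelic direction. With a cluster taken as at least 3 of the 231 genes whose starts follow within 250 kb of each other, 17 clusters held 87 genes, 74 of them with a KRAB match. Of the genes in clusters 34 (39.1%) were called, and of the 144 outside 46 (31.9%), beside 35.7% of autosomal genes with a mean of at least 50. Calls went in both directions within 7 clusters, toward B6 alone in 4, toward Spret alone in 3, and 3 clusters held none. Of all autosomal genes at that level 10.1% were called toward Spret and 25.6% toward B6. How many clusters with calls in both directions such shares would give was not tested. With centred ratios 6 clusters held calls in both directions, and leaving out library 1, 2 or 3 left 2, 4 and 5 such clusters. There were 0 such clusters in limma without the filter on low values, 1 without the intensity trend and 0 without the library as a block, where 13, 30 and 20 of the 231 genes were called in all.

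Zfp78 and Zfp28, whose finger stretches are shown above, are the closest pair with opposite calls. They lie on the same strand of chromosome 7 with 690 bases between the end of Zfp78 and the start of Zfp28. The values of Zfp78 were 45, 74 and 64 from B6 and 76, 93 and 108 from Spret, and the ratio was 0.60 ± 0.16 (SE, n = 3; limma adjusted p = 0.0118), beside the -1.57 of Zfp28. Spret was thus higher in every library for the first gene and lower in every library for its neighbour. The call of Zfp78 was lost without library 1 (adjusted p = 0.0989) and without library 3 (0.109), and that of Zfp28 was kept. In the same cluster Zfp444 was called toward Spret at 0.56 ± 0.11, while Zfp667 (0.20) and Zfp583 (-0.47, adjusted p = 0.0531) were not called.

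The next closest opposite pair, Zfp12 and Zfp316 on chromosome 5, lies outside the clusters. These KRAB genes face each other from opposite strands with 863 bases between their ends. Zfp12 had B6 values of 171, 207 and 220 and Spret values of 275, 213 and 308, a ratio of 0.40 ± 0.11 with overlap across libraries (SE, n = 3; limma adjusted p = 0.0155). Zfp316 stood at 198, 176 and 172 from B6 and 125, 119 and 169 from Spret, without overlap, a ratio of -0.42 ± 0.13 (SE, n = 3; limma adjusted p = 0.0252). In library 3 its alleles were nearly level. The call of Zfp12 was lost without library 1 (adjusted p = 0.225) and without library 3 (0.107), and that of Zfp316 without library 1 (0.257), without library 2 (0.124) and after centring (0.104).

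On chromosome 17 the genes higher from Spret were not adjacent. Zfp229, a KRAB gene with 16 fingers, lies between Zfp760 and Zfp820, 5.2 kb from the first and 47.5 kb from the second. It had B6 values of 166, 156 and 152 and Spret values of 131, 94 and 118, a log2 ratio of -0.48 ± 0.12 toward B6 (SE, n = 3; limma adjusted p = 0.00933), between the ratios of 1.08 and 1.24 of its neighbours. Its call was lost without library 1 (adjusted p = 0.0516) and without library 2 (0.0737). The cluster holds 10 of the 231 genes, all with a KRAB match, of which Zfp948 was the only other one called, at 0.36 ± 0.09 toward Spret, a call lost without library 1 (limma adjusted p = 0.129) and without library 3 (0.0757).

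Zfp263 and Zfp174, 96.5 kb apart on chromosome 16, also went in opposite directions. Zfp174 had 35, 34 and 67 from B6 and 49, 54 and 98 from Spret, a ratio of 0.56 ± 0.19 (SE, n = 3; limma adjusted p = 0.0355). Both of its alleles were highest in library 3 and they overlapped across libraries, though Spret was higher within each. The call was lost when any single library was left out, with an adjusted p of 0.0943, 0.0944 and 0.181 without libraries 1, 2 and 3, and its exons overlap those of Zfp597 on the other strand.

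Neighbours also moved the same way. Zfp110 and Zfp128, 30.6 kb apart on chromosome 7, were both called toward Spret, the second with 112, 87 and 122 from B6 and 149, 130 and 152 from Spret (ratio 0.43 ± 0.12). In another array on chromosome 7, Zfp60, Zfp626 and Zfp974 of 4 genes were called toward B6, at -0.22 ± 0.06, -0.70 ± 0.18 and -0.58 ± 0.17, and after centring only Zfp626 remained. On chromosome 17, Zfp811, Zfp563 and Zfp81 of 8 genes were called toward B6 and none toward Spret, before and after centring. Zfp81 had 533, 453 and 549 from B6 and 298, 325 and 320 from Spret, a ratio of -0.70 ± 0.08, while Zfp871, Zfp799, Zfp952 and Zfp763 stood between -0.02 and 0.03. Several of these calls were lost when a library was left out. Without library 1 the limma adjusted p was 0.0907 for Zfp128, 0.131 for Zfp60, 0.112 for Zfp626, 0.078 for Zfp974 and 0.0501 for Zfp563. Without library 2 it was 0.0739 for Zfp128, 0.0634 for Zfp60 and 0.0889 for Zfp974, and without library 3 it was 0.0952 for Zfp974 and 0.0661 for Zfp563.

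The largest cluster, 13 genes on chromosome 7, held calls at both ends of the range. Zfp30 (-0.97 ± 0.14), Zfp420 (-0.45 ± 0.14) and Zfp146 (-1.07 ± 0.09) were higher from B6, and Zfp14 (0.56 ± 0.15) and Zfp382 (0.54 ± 0.14) higher from Spret. Zfp14 had 69, 55 and 71 from B6 and 107, 87 and 95 from Spret. After centring the cluster held 5 calls toward Spret and 2 toward B6, with Zfp420 lost and Zfp84, Zfp27 and Zfp568 gained. Chromosome 7 as a whole held 60 of the 231 genes, of which 24 (40.0%) were called, 8 toward Spret and 16 toward B6, beside the 35.7% of autosomal genes at this level, and after centring 13 toward Spret and 12 toward B6. Chromosome 17 held 29 with 11 calls and chromosome 8 held 19 with 5. Further arrays on chromosome 9 gave Zfp846 and Zfp560 toward Spret (0.62 ± 0.07 and 0.53 ± 0.18) beside Zfp426 toward B6 (-0.32 ± 0.09, lost after centring), and Zfp810 toward B6 beside Zfp809, which was not called. Without library 1 the calls of Zfp420, Zfp14, Zfp560 and Zfp426 were lost (limma adjusted p = 0.146, 0.0975, 0.154 and 0.0786), without library 2 that of Zfp560 (0.26), and without library 3 those of Zfp420, Zfp382 and Zfp426 (0.234, 0.0983 and 0.137).

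**Figure D3:**
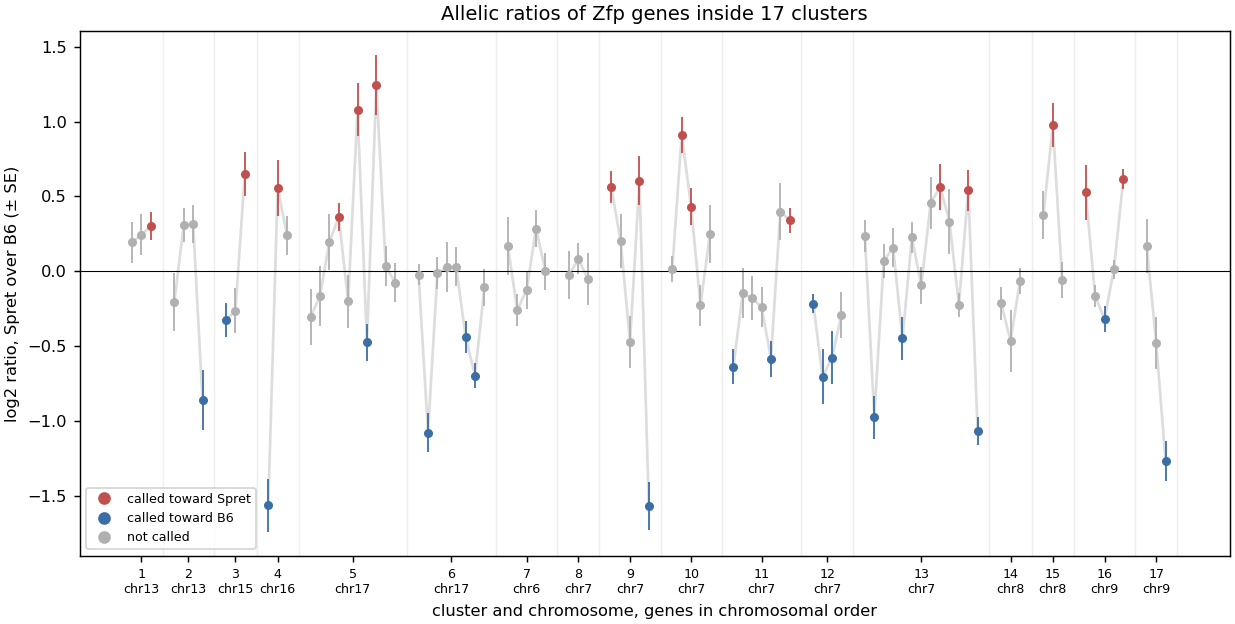
Log2 ratio of Spret over B6 (points, with bars of 1 SE from the fit over 3 libraries) for the 87 Zfp genes of 17 clusters, in chromosomal order within each cluster and joined by grey lines. Red and blue points in the same cluster mark calls in opposite directions, which 7 clusters hold, among them the drop from Zfp78 at 0.60 to Zfp28 at -1.57 at the right end of cluster 9.

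Promoters were read for Zfp78 and Zfp28, which stand side by side and had opposite calls. They were also read for Zfp760 and Zfp820, both called toward Spret, with Zfp229 between them. The promoter of Zfp229 is not shown. Shown are the bases before the annotated start of Zfp78 (chr7:6363058-6363279, plus strand), Zfp28 (chr7:6383068-6383294, plus strand, within the gap between these genes), Zfp760 (chr17:21707491-21707740, plus strand) and Zfp820 (chr17:21845773-21846009, minus strand), from the RefSeq table of GRCm38.p6. They are B6 reference sequence, and capitals mark matches to the motifs described after them.
Zfp78: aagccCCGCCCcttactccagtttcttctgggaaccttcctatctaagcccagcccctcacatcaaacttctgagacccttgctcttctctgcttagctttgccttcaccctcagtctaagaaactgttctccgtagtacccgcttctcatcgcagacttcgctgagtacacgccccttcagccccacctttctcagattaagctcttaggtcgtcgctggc
Zfp28: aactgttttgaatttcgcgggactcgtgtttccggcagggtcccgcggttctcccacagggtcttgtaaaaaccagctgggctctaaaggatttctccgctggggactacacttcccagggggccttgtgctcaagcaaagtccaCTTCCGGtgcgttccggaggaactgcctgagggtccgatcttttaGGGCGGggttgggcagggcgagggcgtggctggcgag
Zfp760: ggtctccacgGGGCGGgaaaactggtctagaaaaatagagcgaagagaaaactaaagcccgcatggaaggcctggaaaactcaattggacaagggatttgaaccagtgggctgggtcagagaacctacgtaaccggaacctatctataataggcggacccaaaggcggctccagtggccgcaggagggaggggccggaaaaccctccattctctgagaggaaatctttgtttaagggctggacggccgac
Zfp820: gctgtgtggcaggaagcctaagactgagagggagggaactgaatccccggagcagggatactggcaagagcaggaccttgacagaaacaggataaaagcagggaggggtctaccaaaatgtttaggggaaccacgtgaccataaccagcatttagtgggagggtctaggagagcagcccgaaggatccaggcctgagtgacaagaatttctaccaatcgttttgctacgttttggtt
The promoter of Zfp28 held 1 match to the ETS motif and 1 to the GC box, those of Zfp78 and Zfp760 held 1 GC box each, and that of Zfp820 held none of the motifs. CpG pairs numbered 8 in Zfp78, 15 in Zfp28, 12 in Zfp760 and 5 in Zfp820. The promoters of Zfp263 and Zfp174, which had opposite calls, were read but are not shown. That of Zfp263 held 3 GC boxes and 14 CpG pairs, and that of Zfp174 none of the motifs and 11 CpG pairs.

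For 193 of the 231 genes the RefSeq table held a promoter, 238 in all, and the 250 bases before each start were compared with those of all 32851 promoters in the table. Both strands were searched for 6 motifs, none of which contains another. The ETS motif CCGGAAG was in 18.1% of Zfp promoters and 6.91% of all, the NRF1 motif CGCATGCG in 4.62% and 1.55%, and the GC box GGGCGG in 45.8% and 32.7%. The YY1 motif AAGATGGCG was in 1.26% against 0.606%, the CRE motif TGACGTCA in 1.68% against 1.55%, and the TATA motif TATAAA in 7.98% against 12.4%. Zfp promoters had a median of 12 CpG pairs and 55.6% GC, against 6 and 52.4% over all promoters. These shares were not tested, and the Spret sequence was not used here. The Zfp genes were chosen by their level, while all promoters were taken whatever the level of their gene, so the sets compared are unlike in that respect.

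KRAB genes were then set beside the other Zfp genes. Of 127 genes with a KRAB match 52 (40.9%) were called, 20 toward Spret and 32 toward B6, and of 103 without one 27 (26.2%) were called, 5 toward Spret and 22 toward B6, beside 35.7% of all autosomal genes with a mean of at least 50. The genes counted as without a match include Zfp939, called toward B6, which had no coding transcript to search. After centring the counts were 32 and 24 in KRAB genes and 14 and 15 in the others. The median absolute log2 ratio was 0.30 with KRAB and 0.18 without, and the median value was 125 and 134. Of the 25 genes called toward Spret 80.0% had a KRAB match, of the 55 called toward B6 58.2%, and of the 151 not called 49.7%.

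The difference in share stood in each range of level but not in every setting. With a mean of 50 to 100, 15 of 45 KRAB genes and 6 of 34 others were called. Between 100 and 200 the counts were 23 of 54 and 13 of 35, and from 200 upward 14 of 28 and 8 of 34. Among genes that share no window with another transcript 22 of 48 (45.8%) with KRAB and 10 of 49 (20.4%) without were called. Leaving out library 1 gave 20.5% and 19.4%, leaving out library 2 gave 35.4% and 25.2%, and leaving out library 3 gave 29.1% and 18.4%. With all libraries the shares were 13.4% and 12.6% without the intensity trend, 9.45% and 7.77% without the library as a block, and 4.72% and 6.80% without the filter on low values, where the order turned. The difference between the groups was not tested.

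**Figure D4:**
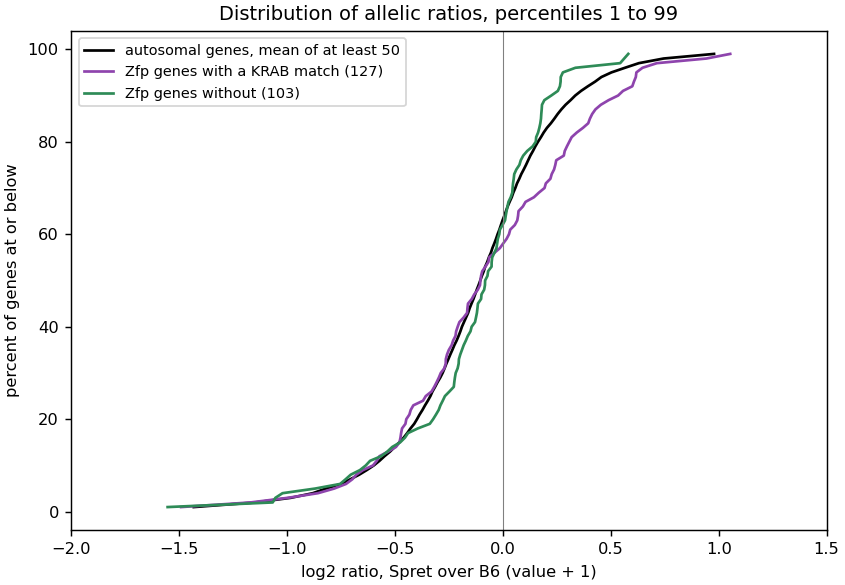
Percent of genes (vertical axis) with a log2 ratio of Spret over B6 at or below the value on the horizontal axis, for 127 Zfp genes with a KRAB match, 103 without and the 8952 autosomal genes with a mean of at least 50. To the right of 0 the line of KRAB genes runs below the others, and to the left of 0 it runs close to that of all autosomal genes.

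Genes with known roles were taken from lists of 5 kinds. Their counts stand beside the 34.6% of all Zfp genes and the 35.7% of autosomal genes with a mean of at least 50 that were called. Of 12 expressed genes with neural or neurotrophin roles, Zfp110 was called toward Spret and Zfp704 toward B6, and after centring Zfp110 and Zfp369 toward Spret and none toward B6. Zfp462, a large chromatin protein needed in the neural lineage, had 1886, 1890 and 1806 from B6 and 1833, 1825 and 1725 from Spret. Its log2 ratio of -0.05 ± 0.04 did not pass the test (limma adjusted p = 0.371), though it was below 0 in each library (-0.04, -0.05 and -0.07). The sign changed with centring (0.07), and the alleles overlapped across libraries. Zfp704 had 1014, 1069 and 1219 from B6 and 847, 827 and 1076 from Spret, a ratio of -0.27 ± 0.05 (SE, n = 3; limma adjusted p = 0.00169). Spret was lower in each library, with overlap across libraries, and the call was lost after centring (adjusted p = 0.0569). Zfp704 shares 18.2% of its windows with other transcripts and overlaps C030034L19Rik on the other strand.

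The other neural genes did not pass the test. Zfp292, a gene of neurodevelopmental disorders, had 886, 794 and 1012 from B6 and 787, 704 and 945 from Spret (ratio -0.15 ± 0.05, adjusted p = 0.0529). Zfp521 and Zfp423, paralogues that act in neural differentiation and cerebellar development, stood at -0.07 ± 0.14 and -0.22 ± 0.15. Zfp536, a repressor of neuronal differentiation, stood at 0.03 ± 0.15, and Zfp335, a gene of microcephaly and progenitor division, at 0.02 ± 0.10. For Zfp148 the ratio was -0.04 ± 0.08, for Zfp24, which acts in myelination, 0.01 ± 0.10, and for Zfp703 0.10 ± 0.26. Zfp365 and Zfp488 were below the level threshold.

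Zfp57 and Zfp445 are the KRAB proteins that protect imprints by binding the methylated copy. Zfp57 had 1234, 1159 and 1673 from B6 and 1346, 1189 and 1671 from Spret, a ratio of 0.05 ± 0.05 with overlapping alleles (adjusted p = 0.432). After centring it was called toward Spret (adjusted p = 0.0123). Zfp445 had 591, 528 and 598 from B6 and 459, 402 and 472 from Spret. Every B6 value was above every Spret value, and the ratio of -0.37 ± 0.06 passed the test (SE, n = 3; limma adjusted p = 0.000599), also after centring (0.0114). Zfp281, a pluripotency factor, stood at -0.32 ± 0.18 and Zfp143, which binds promoters and loop anchors, at 0.15 ± 0.15, neither called. Zfp42, also called Rex1, a marker of naive pluripotent cells, had a mean of 0.167 and Zfp296 a mean of 3.67, both below the threshold.

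None of the 3 expressed genes known for silencing retroelements or the placental Igf2 transcript was called in limma, where 80 of all 231 were. Zfp809, which silences murine leukaemia proviruses, had 95, 66 and 77 from B6 and 57, 46 and 67 from Spret, a ratio of -0.48 ± 0.17 (adjusted p = 0.0504). Zfp568, which silences placental Igf2, had 67, 52 and 62 from B6 and 77, 93 and 79 from Spret. Its alleles did not overlap, the ratio was 0.46 ± 0.17 (adjusted p = 0.0613), and it was called after centring (adjusted p = 0.021). Zfp708, a repressor of a retrotransposon family, stood at 0.24 ± 0.14, but its windows are fully shared with the read-through gene model Gm28557.

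Among 9 genes of RNA, ribosome and ubiquitin functions Zfp106 and Zfp207 were called, both toward B6, but after centring 3 were called toward Spret (Zfp638, Zfp451 and Zfp622) and 1 toward B6 (Zfp106). Zfp106, an RNA-binding protein needed by motor neurons, had 58, 78 and 83 from B6 and 38, 40 and 60 from Spret (ratio -0.67 ± 0.19, limma adjusted p = 0.0137). With a Spret mean of 46 it reached the level threshold only through its B6 allele. It shares 25.2% of its windows with Gm26899 and other models. Zfp207, a spindle assembly protein, had 816, 761 and 890 from B6 and 727, 656 and 719 from Spret (ratio -0.23 ± 0.06, limma adjusted p = 0.00763), and the call was lost after centring. The call of Zfp106 was also lost without library 1 (limma adjusted p = 0.0676) or library 2 (0.0841) and that of Zfp207 without library 3 (0.0768). The ribosome collision ligase Zfp598 stood at -0.30 ± 0.11 (adjusted p = 0.051), the ribosome assembly factor Zfp622 at 0.28 ± 0.11, the SUMO ligase Zfp451 at 0.12 ± 0.06 and the silencing factor Zfp638 at 0.05 ± 0.06.

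Of 7 genes of chromatin cofactor complexes Zfp592 was called, toward B6, and after centring also Zfp644, toward Spret (adjusted p = 0.0456). It had 158, 153 and 194 from B6 and 98, 79 and 136 from Spret, without overlap, at -0.71 ± 0.13 (SE, n = 3; limma adjusted p = 0.000552). Zfp687 and Zfp532, which form a complex with Zfp592 and Zmynd8, stood at -0.21 ± 0.15 and -0.03 ± 0.07 and were not called. Zfp644, a partner of the G9a histone methyltransferase, stood at 0.05 ± 0.06, and Zfp217 and Zfp219 at -0.20 ± 0.15 and -0.35 ± 0.16.

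**Figure D5:**
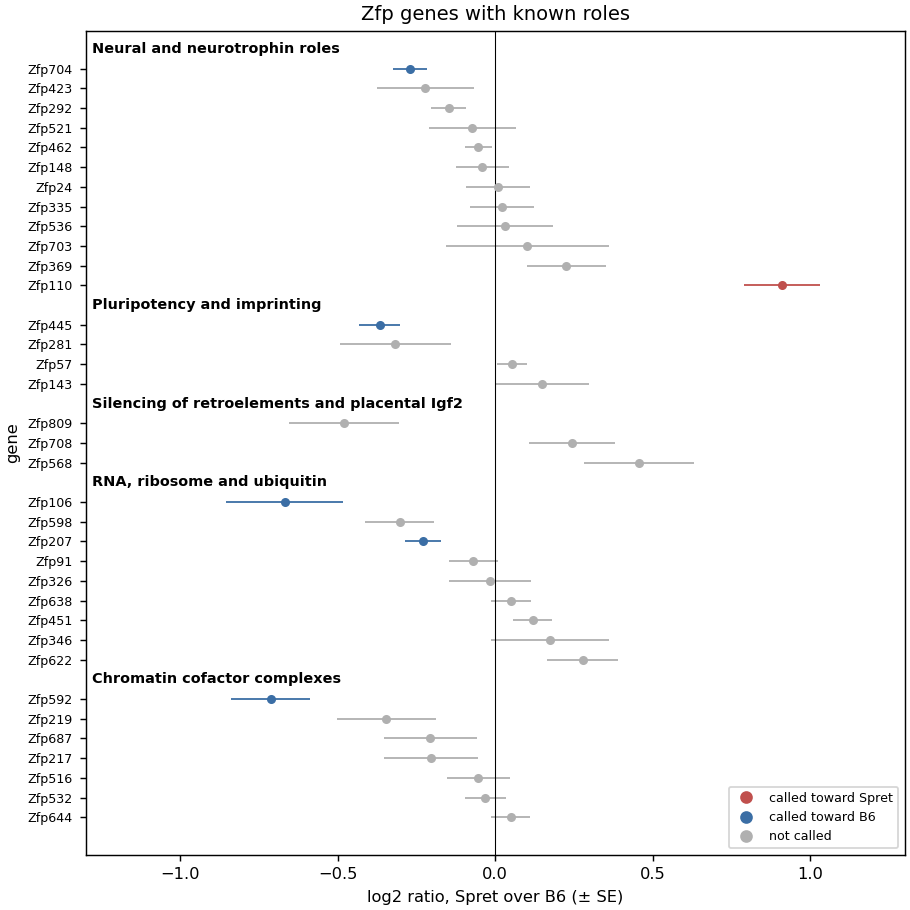
Log2 ratio of Spret over B6 with 1 SE from the fit over 3 libraries for the expressed Zfp genes of 5 role lists, ordered by ratio within each list. Without centring, Zfp110 is the called gene toward Spret (red) and Zfp704, Zfp445, Zfp106, Zfp207 and Zfp592 are those toward B6 (blue).

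The partners of KRAB proteins were read from a list of co-repressor and heterochromatin genes. Of 31 autosomal genes tested 10 (32.3%) were called, near the 28.4% of all autosomal genes tested and the 35.7% of those with a mean of at least 50. They were 4 toward Spret and 6 toward B6, and after centring 7 toward Spret and 1 toward B6. Leaving out library 1, 2 or 3 left 4, 8 and 4 calls. Trim28, the KRAB co-repressor itself, had 637, 477 and 732 from B6 and 726, 577 and 906 from Spret, a ratio of 0.26 ± 0.06 (SE, n = 3; limma adjusted p = 0.00462). Spret was higher in each library, by less than the difference between libraries. Atf7ip, which stabilises the methyltransferase Setdb1, had the largest ratio toward Spret, 0.47 ± 0.06, with 744, 673 and 921 from B6 and 1092, 849 and 1323 from Spret. Setdb1 stood at -0.16 ± 0.10 and was not called. Uhrf1, which reads hemimethylated DNA, had the largest called ratio toward B6, -0.50 ± 0.17, with 81, 82 and 92 from B6 and 68, 59 and 53 from Spret. The call of Uhrf1 was lost after centring (adjusted p = 0.111). The heterochromatin proteins differed in direction, with Cbx3 at 0.33 ± 0.09 toward Spret and Cbx1 and Cbx5 at -0.29 ± 0.08 and -0.19 ± 0.06 toward B6. After centring Cbx3 was called and Cbx1 and Cbx5 were not. Among other C2H2 gene families (Zbtb, Zscan, Zkscan, Zfhx, Zeb, Zic, Prdm and Ikzf), 59 genes had a mean of at least 50, and 20 (33.9%) of them were called, near the 35.7% of all autosomal genes at that level. They were 4 toward Spret and 16 toward B6, and after centring 7 and 10.

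The share of Zfp genes called did not follow their level in 1 direction. It was 21 of 79 (26.6%) at a mean of 50 to 100, 36 of 89 (40.4%) between 100 and 200, and 23 of 63 (36.5%) from 200 upward, while the median SE fell from 0.17 through 0.12 to 0.08. Of 37 genes that share over 10% of their windows with other transcripts 15 (40.5%) were called, of 96 that share up to 10% 32 (33.3%), and of 97 with none shared 32 (33.0%). Exons of 72 genes overlapped another gene, and 17 (23.6%) of these were called, against 62 of 158 (39.2%) without overlap. Among the 213 genes with a mean of at least 50 in both alleles 68 (31.9%) were called, 20 toward Spret and 48 toward B6, and after centring 41 toward Spret and 34 toward B6. Of the 8 genes with a B6 mean under 50, 5 were called, all toward Spret. Of the 10 with a Spret mean under 50, 7 were called, all toward B6. The threshold favoured a difference in such genes. Of all autosomal genes with a mean of at least 50, 35.7% were called, and 34.2% after centring. The part of these properties in the calls was not tested.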

How the data were processed

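RNA from 3 libraries of day 12 organoids was measured after ribosomal depletion, per the labels' protocols. The values are a score: the authors deposited allele-specific read numbers per gene, normalised and rounded to whole numbers, per the name of the deposited table, on build mm10 per the submitters' processing notes. Not given in the sources used here are the aligner, how reads were assigned to alleles, the counting tool and its strand setting, and the read numbers behind the values, so the depth is known only as the sums of values and a test for read counts was not used. Another 12 iPSC samples from 4 crosses were not analysed here.

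The members and lists were chosen with earlier results of these data known. Differences were tested with limma 3.58.1 in R 4.3.3 on log2(value + 1), with terms for library and for allele and with an intensity trend, over 15985 genes with a mean of at least 10. Two-sided p-values were adjusted over all of them (Benjamini-Hochberg), with a threshold of 0.05 (2 residual and 12.3 prior degrees of freedom). Library is a block because both alleles come from the same RNA. Ratios understate the differences of low genes. Named are the 8 called genes of largest ratio in each direction with the same sign in 3 of 3 libraries, the 5 of highest value, the role lists, the called genes of clusters and the genes next to the threshold. Zfp939, Zfp941, Zfp12, Zfp316 and other genes named besides these were chosen after their values were seen. Of co-repressors, Trim28, Setdb1 and those of largest called ratio are named. KRAB domains came from a profile built with pyhmmer 0.12.3 from 143 protein windows (E-value under 1e-05). Shared sequence is the share of a transcript's 50-base windows that occur in another gene's GENCODE M21 transcripts. The fit was also run on data simulated without an overall shift between the alleles. Its outcome is not given here and is not used as support for the calls.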

Additional observations from a re-analysis of the deposited data

How the results depend on the processing

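The counts above depend on the variance model. Shares over all autosomal genes are given only for the main setting and after centring, so the counts of other settings have none beside them. Without the filter on low values 13 Zfp genes were called, 3 toward Spret and 10 toward B6, with 7 at 2-fold or more. Without the intensity trend 30 were called, 10 and 20, and without the replicate block, which drops the pairing of alleles in a library, 20 were called, 6 and 14. In these 3 settings limma called 0 co-repressor genes, with 12, 5 and 4 at an unadjusted p under 0.05. All genes called there were among the 80. Pseudocounts of 0.5 and 5, and the stricter filters, kept all 80 and added up to 7.

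Leaving out 1 library at a time gave 46 to 71 calls, 12 to 24 toward Spret and 34 to 47 toward B6, with 10 to 12 at 2-fold or more, 4 to 8 co-repressors and a median of -0.098 to -0.0757. With at least 50 in each allele the median was -0.0942. Centring gave 46 calls toward Spret and a median of 0.025. It adds about the same amount to every ratio, so any ratio just under 0 changes sign. Among genes of the role lists it reversed 7 uncalled ratios, to 0.0708 (Zfp462), 0.0515 (Zfp521), 0.0824 (Zfp148), 0.1066 (Zfp326), 0.0538 (Zfp91), 0.0927 (Zfp532) and 0.0705 (Zfp516). Leaving out each replicate in turn also changed the sign of uncalled ratios of these lists, which then ranged from -0.1648 to 0.0095 (Zfp521), from -0.1284 to 0.1596 (Zfp536), from -0.0924 to 0.0254 (Zfp148), from -0.1898 to 0.0617 (Zfp516), from -0.0559 to 0.0927 (Zfp335), from -0.0672 to 0.0922 (Zfp24), from -0.3076 to 0.471 (Zfp703), from -0.1737 to 0.1206 (Zfp326), from -0.0809 to 0.0624 (Zfp532) and from -0.0034 to 0.1346 (Zfp638). The cause was not tested. No called ratio of a named Zfp gene changed sign under any of these settings.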

Other observations

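The 7 Zfp genes on the X chromosome were read from the B6 allele alone or nearly so. Zfp711, a gene of intellectual disability whose protein recruits a histone demethylase, had B6 values of 281, 269 and 290 and Spret values listed at 0 in all 3 libraries. Zfp275 had 247, 214 and 329 from B6, with the Spret allele listed at 0. Zfp182 had 213, 180 and 222 from B6 and 1, 0 and 0 from Spret. The means of Zfp300, Zfp449, Zfp185 and Zfp92 were below 50, at 29.0, 38.7, 5.67 and 9, and all of their Spret values were listed at 0.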
